A study of Homo sapiens with 8 samples.

Results

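Cancer-testis antigen genes of 11 families were followed by RNA-Seq in BEAS-2B, a line of human airway epithelium immortalised with viral genes. The genes were chosen by name, as every listed gene whose symbol starts with MAGEA, MAGEB, MAGEC, PAGE, GAGE, XAGE, SSX, SPANX, CT45A, CT47A or CTAG, and 10 genes of the unrelated CTAGE group were left out. This gave 106 of the 25411 genes listed. One of them, SSX2IP on chromosome 1, codes for a partner protein of the SSX antigens and is no cancer-testis antigen, so it was kept apart and the counts given here are over the other 105 genes, all on chromosome X. Among these 105, 3 names stand for a read-through transcript, an antisense transcript and an overlapping transcript (MAGEA10-MAGEA5, MAGEA8-AS1 and SPANXA2-OT1) and not for antigens. MAGEA5, SSX6, SSX8 and SSX9 are now listed under the pseudogene symbols MAGEA5P, SSX6P, SSX8P and SSX9P. All of these names stay in the counts of antigen genes.

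The 8 libraries form 4 groups with 2 libraries each. All carried the BEAS-2B background with no other genetic change stated. Untreated cells (UT) received no nickel. Nickel-exposed cells (Ni-E) were cultured with 100 µM NiCl2 over 6 weeks. For the nickel-washed-out group (Ni-W), cells with this exposure were then grown from single cells in nickel-free medium for more than 6 months. The paper used a single, randomly selected population of such cells. The spread between the 2 Ni-W libraries is therefore not a spread between clones. The HCl3 group is labelled with the treatment of Ni-W, with no time of its own and no stated relation to Ni-W. Ni-W and HCl3 are therefore clonal populations and UT and Ni-E are not described as such, so effects of cloning, of culture time and of past nickel cannot be told apart here. The labels give experiment number 2 to both Ni-E libraries and numbers 3 and 4 to the HCl3 libraries, and none to UT or Ni-W, so experiment and group cannot be told apart either.

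Cancer-testis antigens are proteins made in male germ cells and, in some tumours, made again by cells of other tissues, where they can be seen by T cells. Most of the families studied here are clusters of recently duplicated genes on chromosome X. MAGE-A, MAGE-B and MAGE-C proteins bind RING ubiquitin ligases and direct them to new substrates, SSX proteins are nuclear repressors known from the SS18-SSX fusions of synovial sarcoma, and SPANX proteins belong to the sperm nuclear envelope. In somatic cells their promoters are generally held silent by DNA methylation and by repressor complexes. Neither was measured in these libraries.

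The libraries held between 26383920 and 45692298 reads counted on genes. A floor of 3 reads corresponded to between 0.06566 and 0.1137 RPM. RPM is reads-per-million, the reads of a gene scaled to the reads counted on all genes of its library. Of the epithelial markers, KRT8, KRT18 and KRT7 were abundant and the summed level of the 8 markers was between 603 and 1019 RPKM. KRT5 and CDH1 were at or near 0 RPKM in each library, and KRT19 did not exceed 0.78 RPKM in any. The mesenchymal markers VIM, CDH2 and FN1 summed to between 891 and 1715 RPKM. Their sum exceeded the epithelial sum throughout UT, Ni-E and HCl3, while the ranges overlapped for Ni-W. FN1 did not exceed 6.99 RPKM in UT or Ni-E, but was at least 82.09 RPKM in the Ni-W and HCl3 libraries. The marker levels therefore do not show a purely epithelial state. Of 10 germ cell markers, 7 had fewer than 3 reads in both libraries of each group, DDX4, DAZL, STRA8, PRM1, PRM2 and TNP1 among them. The exceptions were SYCP3, NANOS3 and DMC1. DMC1 had 16 and 21 reads for UT, 8 and 7 for Ni-E, 38 and 16 for Ni-W, and 57 and 53 for HCl3. It was called higher in HCl3 than in Ni-E (log2 fold change 2.73 ± 0.67 SE, adjusted P value 0.000274, DESeq2), but not in HCl3 against UT (0.0786). Summed, the 10 markers reached 0.87 to 1.22 RPKM for UT, 0.69 to 0.73 for Ni-E, 0.93 to 1.07 for Ni-W, and 1.64 to 2.04 for HCl3. The leukocyte and endothelial lists did not exceed 0.04 RPKM in any library.

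Most of the antigen genes gave no read at all. No read was counted in any library for 84 of the 105 genes (80.0%), against 6263 of all 25411 listed genes (24.6%). Of the 21 genes with a read, 12 reached 3 reads in some library and 6 reached 10 reads. The XAGE, CT45A, CT47A and CTAG families gave no read in any library, and of 22 GAGE genes only GAGE12J was seen, with 1 read. The MAGEA family, whose members carry the MAGE homology domain, had 6 of 15 genes with a read, and the PAGE family 4 of 6.

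**Figure D1:**
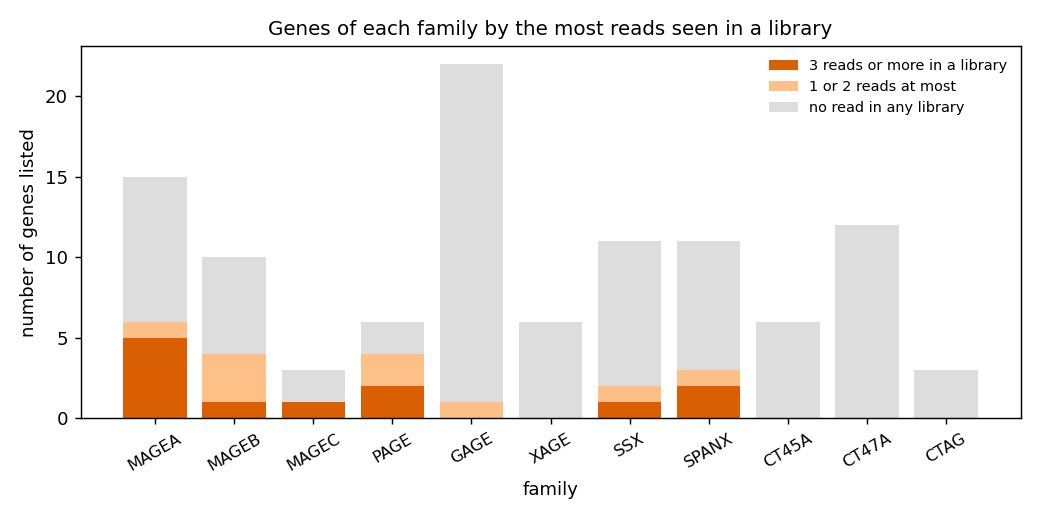
Number of genes listed in each of the 11 families (bars, from 0), split by the most reads seen in any of the 8 libraries. Orange stands for genes that reached 3 reads in a library, light orange for genes with 1 or 2 reads at most and grey for genes with no read, which make up 84 of the 105 genes.

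The absence of reads has to be read beside the way reads were counted, because reads that aligned to several places had been removed. The share of 50-base stretches of each gene's longest transcript that occur in the transcripts of no other gene was therefore computed from GENCODE v44 for the 95 genes with a matching transcript. The read length was not stated in the sources used here, so 50 bases is an assumed length, and the unique shares depend on it. The 74 genes without a read had a median unique share of 8.04% (range 0 to 100%), and 22 of them had no unique stretch. The 21 genes with a read had a median of 95.5% (9.77 to 100%). By family, the median was 0% for CT47A, 1.04% for CTAG, 4.87% for CT45A and 5.47% for GAGE, so few reads of the assumed length could be placed on most of these genes, and their absence then cannot be read as an absence of expression. For the MAGEB (99.0%), MAGEC (99.9%) and PAGE (93.2%) families, the median transcript was largely unique. XAGE had a median of 97.6% (0 to 100%), but XAGE2 and XAGE2B were matched to the same transcript and so not compared with each other. XAGE1B and XAGE1E had no unique stretch. Among the genes described below, MAGEA3 (43.8%) and MAGEA6 (43.4%) shared 54.5% of their stretches with each other, so their reads are counted low and their separation rests on the remaining stretches. MAGEA12 (91.4%), PAGE5 (86.3%), SSX1 (88.4%), MAGEA11 and SPANXN3 (both 99.8%) and PAGE1 (100%) were mostly or wholly unique.

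**Figure D2:**
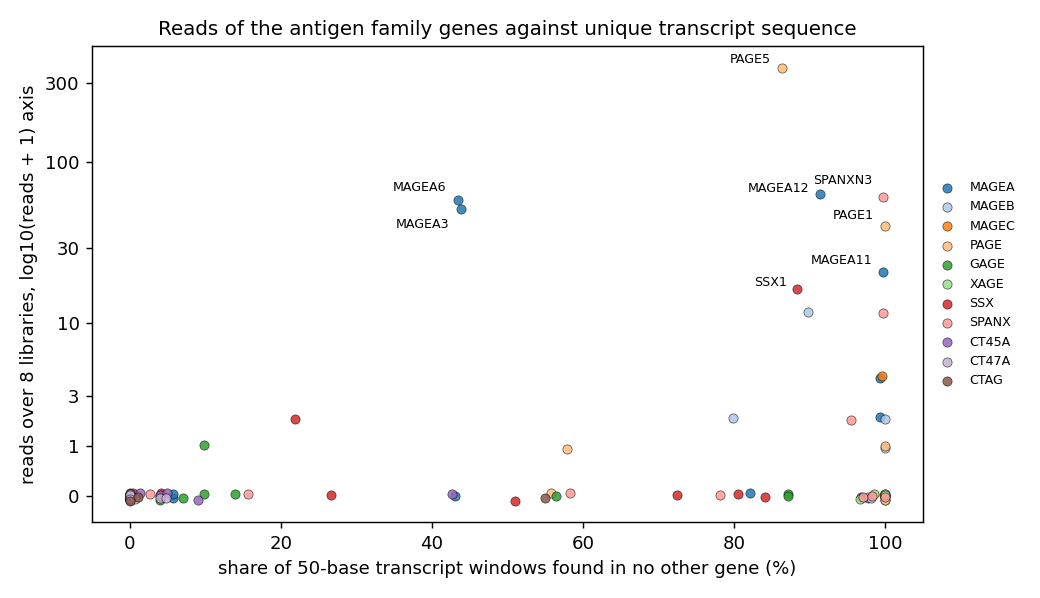
Each point is an antigen family gene with a GENCODE transcript, with the share of its 50-base transcript windows found in no other gene (x axis, percent) and its reads summed over the 8 libraries (y axis, log10 of reads + 1, with a small vertical shift to part the points). Of the 74 genes without a read, 39 lie under 10% and 18 over 90%, and MAGEA3 and MAGEA6 stand near 43% with 50 and 62 reads.

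The promoters of the genes on which the results turn are printed here because MAGEA3, MAGEA6 and MAGEA12 are near copies of each other in this stretch, with PAGE5 and SSX1, which were likewise seen most in Ni-E, beside them. Each stretch runs from 250 bases before to 50 bases after a RefSeq transcription start (GRCh38.p14, 5′ to 3′ on the gene's strand), with each CpG dinucleotide, the target of DNA methylation, in capitals. The 300 bases of MAGEA3 (chrX:152698544-152698843, plus strand) and of MAGEA6 (chrX:152769640-152769939, minus strand) were identical at 300 of 300 positions, so 1 sequence stands for both. A start of MAGEA12 (chrX:152733612-152733911, plus strand) matched it at 234 of 261 aligned bases (89.7%). PAGE5 is at chrX:55220096-55220395 and SSX1 at chrX:48255142-48255441, both on the plus strand.
MAGEA3 and MAGEA6: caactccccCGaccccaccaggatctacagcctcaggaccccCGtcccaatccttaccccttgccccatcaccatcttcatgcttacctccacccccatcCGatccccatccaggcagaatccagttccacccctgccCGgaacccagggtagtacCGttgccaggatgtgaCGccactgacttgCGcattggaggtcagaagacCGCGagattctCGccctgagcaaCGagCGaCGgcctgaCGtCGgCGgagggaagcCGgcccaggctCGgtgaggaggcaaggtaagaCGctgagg
MAGEA12: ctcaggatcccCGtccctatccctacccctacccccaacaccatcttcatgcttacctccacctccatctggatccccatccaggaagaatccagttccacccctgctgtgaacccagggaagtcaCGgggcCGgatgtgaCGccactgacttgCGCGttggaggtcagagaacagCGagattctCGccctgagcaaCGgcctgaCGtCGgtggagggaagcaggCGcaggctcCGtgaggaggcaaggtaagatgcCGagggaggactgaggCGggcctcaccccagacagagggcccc
PAGE5: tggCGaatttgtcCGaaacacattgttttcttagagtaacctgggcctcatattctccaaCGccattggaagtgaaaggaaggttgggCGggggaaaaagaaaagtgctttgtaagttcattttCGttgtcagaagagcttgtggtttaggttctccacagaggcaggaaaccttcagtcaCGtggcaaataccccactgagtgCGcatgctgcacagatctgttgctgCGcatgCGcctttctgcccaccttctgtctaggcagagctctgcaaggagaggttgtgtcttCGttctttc
SSX1: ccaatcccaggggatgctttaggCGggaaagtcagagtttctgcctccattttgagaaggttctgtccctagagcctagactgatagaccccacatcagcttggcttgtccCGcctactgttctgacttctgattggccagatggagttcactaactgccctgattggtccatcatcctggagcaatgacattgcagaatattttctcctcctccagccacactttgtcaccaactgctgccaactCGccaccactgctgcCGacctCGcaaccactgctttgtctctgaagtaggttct

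The window of MAGEA3 and MAGEA6 held 19 CpG dinucleotides, that of MAGEA12 15, that of PAGE5 10 and that of SSX1 5. The median was 14 over 35116 promoter windows of the same length, and 11 over the 76 different windows found for the antigen genes (65 of the 105 genes had an entry). Of 3 short motifs searched on both strands, GGCGGGA, a core of E2F sites, occurred 2 times in the SSX1 window and in 15.4% of all promoter windows, against 25 of the 76 windows (32.9%) of the antigen genes, many of which are near copies of each other. CACGTG, the E-box, was present in the PAGE5 window shown and in that of PAGE1, in 7.26% of all windows and in 19 of the 76. CCGGAA, an ETS core, occurred 1 time in the window shared by MAGEA3 and MAGEA6, where it overlaps a CpG, in none of the others shown, in 17.2% of all windows and in 4 of the 76.

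In UT cells, 5 antigen genes were detected by at least 3 reads in both libraries, namely MAGEA3, MAGEA11, MAGEA12, PAGE1 and SPANXN3. In Ni-E cells 7 were detected, with MAGEA6, PAGE5 and SSX1 in and MAGEA11 out. In Ni-W cells none was detected, and in HCl3 cells the 1 detected name was SPANXA2-OT1, the overlapping transcript, with 3 and 4 reads. Each of these groups detected between 14083 and 15050 of all genes listed by the same rule.

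The summed level of the 105 genes gives the same order. The UT libraries stood at 1.842 and 1.706 RPM, the Ni-E libraries at 8.554 and 8.415, the Ni-W libraries at 0.1751 and 0.03211, and the HCl3 libraries at 0.2449 and 0.234. No group overlapped another, with Ni-W and HCl3 both near the floor, and the deepest library of all was a Ni-W library with 8 such reads (95% Poisson interval 3.454 to 15.76). The ratio of Ni-E to UT was 4.78, and 2.01 with PAGE5 left out, since PAGE5 alone gave 62.8 and 59.4% of the antigen reads in Ni-E. The ratio of Ni-W to UT was 0.0584, and it was 0.0181 without Ni-W replicate 1 and 0.0987 without Ni-W replicate 2. That of HCl3 to UT was 0.135. With 2 libraries a group, an exact permutation test cannot give a p below 0.333, so these sums carry no test. In bulk RNA, fewer cells that express a gene and less RNA in each cell cannot be told apart.

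**Figure D3:**
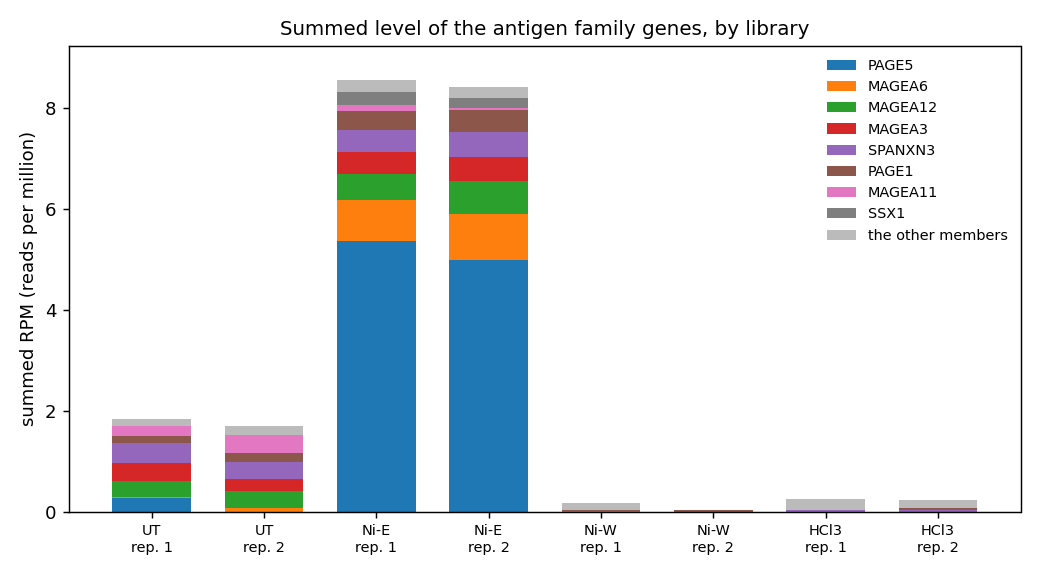
Summed level of the 105 antigen family genes in each of the 8 libraries (bars, RPM, from 0), with the part of each of 8 named genes in colour and the other genes in light grey. The Ni-E libraries reach 8.554 and 8.415, of which PAGE5 makes up the largest part, the UT libraries 1.842 and 1.706, and the Ni-W and HCl3 libraries stay below 0.25.

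PAGE5, of the PAGE family of GAGE relatives (hg19 chrX:55246792-55250541), had the largest count. The UT libraries held 10 and 0 of its reads, the Ni-E libraries 186 and 170, and the 4 Ni-W and HCl3 libraries none. The Ni-E libraries stood far above all others, and the UT libraries differed from each other by more than counting error (10 reads, 95% Poisson interval 4.8 to 18.4, against 0). Per length, PAGE5 reached 8.87 and 8.26 RPKM in the Ni-E libraries, where no other antigen gene exceeded 0.75 RPKM. PAGE5 was called higher in Ni-E than in UT (log2 fold change 5.20 ± 1.78 SE, adjusted P value 0.0349, DESeq2). This call remained without either UT library (adjusted P values 0.000409 and 1.9e-08) and was lost without Ni-E replicate 1 (0.7) or Ni-E replicate 2 (0.631), and with all 8 libraries in one fit (0.47). Against Ni-E, the absence of reads puts PAGE5 at least 64.1-fold lower in Ni-W and at least 65.0-fold lower in HCl3, taking 3 reads in each library as the floor.

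MAGEA6 (hg19 chrX:151867245-151870814), a MAGE-A antigen that binds the ligase TRIM28, had 1 and 2 reads in the UT libraries and 28 and 31 in the Ni-E libraries. No read was counted in Ni-W or HCl3. The Ni-E libraries lay above both UT libraries with no overlap of their 95% Poisson intervals (lower bounds of 18.6 and 21.1 reads in Ni-E, upper bounds of 5.57 and 7.22 in UT). MAGEA6 was called higher in Ni-E than in UT (log2 fold change 4.10 ± 1.15 SE, adjusted P value 0.00632, DESeq2). The call was lost without any 1 of the 4 libraries, with adjusted P values of 0.223 and 0.228 without Ni-E replicates 1 and 2 and of 0.163 and 0.101 without UT replicates 1 and 2, and with the replicate number as a block (0.063). Below Ni-E, MAGEA6 was lower by at least 10.6-fold in Ni-W and by at least 10.8-fold in HCl3.

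MAGEA3 (hg19 chrX:151934652-151938240), the near copy of MAGEA6 and a target of tumour vaccines, was seen with 13 and 6 reads in the UT libraries and 15 and 16 in the Ni-E libraries, and with none in Ni-W or HCl3. The UT libraries lay below the Ni-E libraries in RPM, and their counting intervals overlapped. MAGEA3 was not called between Ni-E and UT, and its level of 0.4521 ± 0.02638 RPM in Ni-E compared with 0.2872 ± 0.08453 in UT (mean ± SD, n = 2). MAGEA6, with the same promoter window, stood at 0.8606 ± 0.07283 in Ni-E and 0.05125 ± 0.03473 in UT. The difference between these neighbouring genes in their change was not tested.

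MAGEA12 (hg19 chrX:151899293-151903184), which lies between them and is also a MAGE-A antigen, had 12 and 9 reads in the UT libraries, 18 and 22 in the Ni-E libraries and none in the other 4. The Ni-E libraries were above the UT libraries, but MAGEA12 was not called between them. MAGEA11 (hg19 chrX:148793738-148798928), a MAGE-A protein known as a coregulator of the androgen receptor, stood lower in Ni-E than in UT, with UT at 8 and 9 reads, Ni-E at 4 and 1, and Ni-W and HCl3 at none. It was not called in Ni-E against UT (log2 fold change -1.97 ± 1.43 SE, adjusted P value 0.445, DESeq2).

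SPANXN3 (hg19 chrX:142596564-142605303), of the N branch of the sperm SPANX family, had 15 and 9 reads in the UT libraries and 15 and 17 in the Ni-E libraries. Ni-W held 1 and 0 reads, and HCl3 1 and 1. In RPM the UT libraries lay just below the Ni-E libraries, with overlapping counting intervals, and all 4 lay above the other 2 groups. PAGE1 (hg19 chrX:49452054-49460596), a relative of PAGE5, had 5 and 5 reads in the UT libraries, against 13 and 15 for Ni-E, 1 and 1 for Ni-W, and 0 and 2 for HCl3. In RPM it followed the order Ni-E, UT and then the washed-out groups, of which Ni-W and HCl3 did not differ beyond their spread. PAGE1 was not called against UT in Ni-E (adjusted P value 0.525), Ni-W (0.306) or HCl3 (0.316, DESeq2), so the place of UT in this order is not settled. SSX1 (hg19 chrX:48114752-48126879), a nuclear repressor, was seen in Ni-E alone, with 9 and 7 reads, which is at least 2.41-fold above UT.

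**Figure D4:**
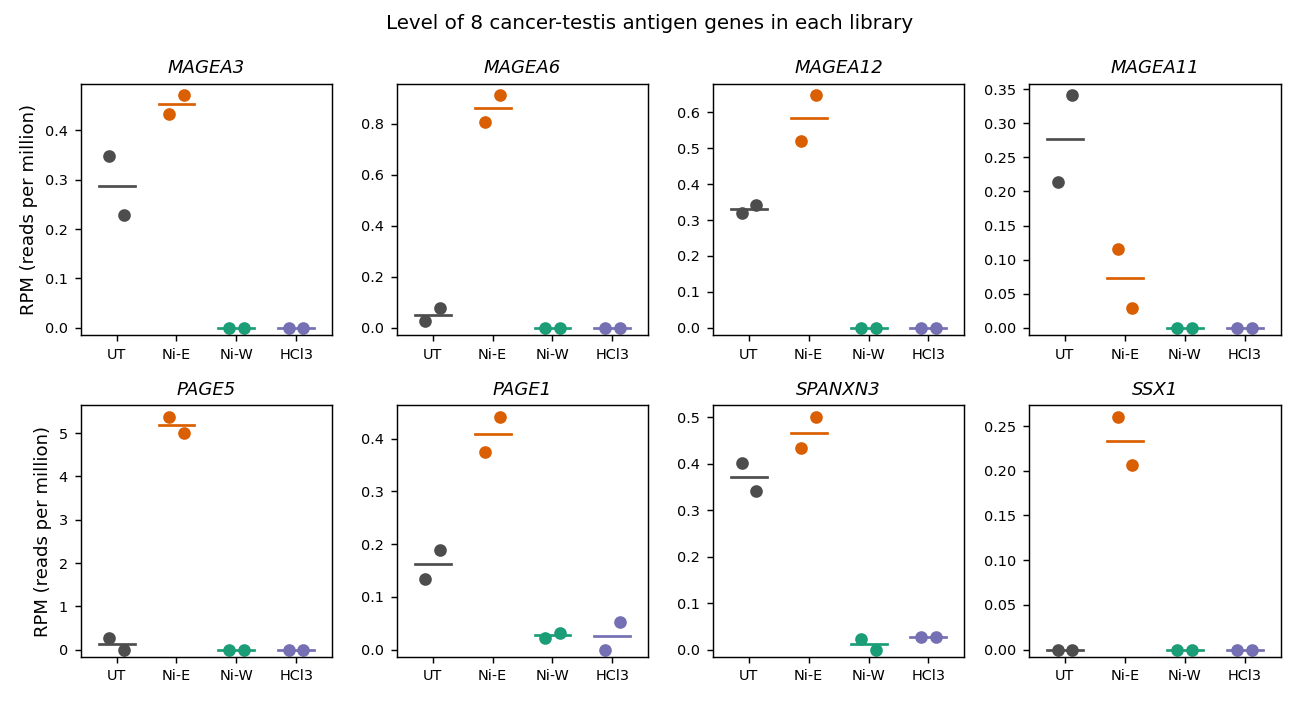
Level of 8 antigen genes in each library (y axis, RPM, a separate scale for each gene). Points are the 2 libraries of each group and lines their means. In Ni-W and HCl3 no library exceeds 0.052 RPM for any of the 8 genes, and MAGEA6, PAGE5 and SSX1 are high in both Ni-E libraries against UT, while MAGEA11 stands lower without being called.

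The other genes with 3 reads or more were seen in single libraries or at a few reads. MAGEC1 gave 4 reads in Ni-E replicate 2 and none elsewhere, and MAGEA8 gave 3 reads in Ni-W replicate 1 and 1 in HCl3 replicate 1. MAGEB6 stayed between 0 and 3 reads in each of the 8 libraries. The other 9 genes with a read (GAGE12J, MAGEA1, MAGEB17, MAGEB18, MAGEB2, PAGE2, PAGE3, SPANXN1 and SSX6) had no more than 2 reads in any library.

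The comparison of Ni-E with UT asks which genes changed while nickel was present. Of the 105 antigen genes, 19 had a read in these 4 libraries, 7 could be tested and 2 were called, both higher, PAGE5 and MAGEA6. Among all 14401 genes tested, 5.83% were called, 543 higher and 297 lower. The median log2 fold change of the 7 tested genes was 0.77, with 6 above 0, against -0.002 over all genes tested. The 7 are the genes with the most reads and do not stand for the 105. MAGEA6 and PAGE5 passed the filter on low counts mainly through their Ni-E reads. The median and the signs of the 7 are therefore not evidence about the families. The edgeR quasi-likelihood test also called SSX1 (adjusted P value 0.0499), which DESeq2 left out for its low count (unadjusted P value 0.0154).

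The comparison of washed-out cells with UT asks what differed after nickel was removed, for more than 6 months in Ni-W and for an unstated time in HCl3. Against UT, 4 antigen genes were called lower in Ni-W (MAGEA3, MAGEA11, MAGEA12 and SPANXN3) of 6 tested, where 16.2% of all 15419 genes tested were called. MAGEA3, MAGEA11 and MAGEA12 had no read in Ni-W, which puts them at least 3.55-, 3.42- and 4.08-fold lower than in UT. SPANXN3 fell by 4.88 ± 1.80 SE on the log2 scale. The adjusted P values of the 4 genes lay between 0.00689 (MAGEA12) and 0.0248 (SPANXN3, DESeq2). The tested genes passed the filter on low counts through their UT reads, so the number called is not evidence about the families. Each of these calls was lost when any of the 4 libraries was left out, and the adjusted P values without Ni-W replicate 1, the deepest library, were 0.211 for MAGEA3, 0.223 for MAGEA11, 0.169 for MAGEA12 and 0.139 for SPANXN3. Without Ni-W replicate 2 they were 0.126, 0.133, 0.095 and 0.209, and without UT replicate 2 0.084 for MAGEA3, 0.104 for MAGEA12 and 0.127 for SPANXN3. Without UT replicate 1 none of the 4 genes could be adjusted, nor could MAGEA11 without UT replicate 2. With a mean of at least 10 reads required, none of the antigen genes was called. The mean counts of the 4 genes lay between 4.836 (MAGEA11) and 6.634 (SPANXN3), so that rule left them out and does not test their calls.

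In HCl3 against UT, MAGEA3, MAGEA11, MAGEA12 and SPANXN3 were called lower of 7 tested, where 14.8% of all 15714 genes tested were called. Because both comparisons share the UT libraries, the values of HCl3 are given beside those of Ni-W and not as a repeat of them. MAGEA3, MAGEA11 and MAGEA12 were at least 3.6-, 3.47- and 4.14-fold lower, and SPANXN3 fell by 3.85 ± 1.49 SE on the log2 scale (adjusted P value 0.0335, DESeq2). These calls were also lost without any 1 of the 4 libraries, with adjusted P values of 0.172, 0.182, 0.134 and 0.281 in that order of genes without HCl3 replicate 1, and 0.184, 0.194, 0.143 and 0.302 without HCl3 replicate 2. Without UT replicate 1 the value was 0.223 for SPANXN3, and without UT replicate 2 it was 0.0676 for MAGEA3 and 0.152 for SPANXN3, and the remaining genes could not be adjusted there.

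Against Ni-E, 7 antigen genes were called lower in Ni-W, which were all 7 tested (MAGEA3, MAGEA6, MAGEA12, PAGE1, PAGE5, SPANXN3 and SSX1), and MAGEA3, MAGEA6, MAGEA12, PAGE1, PAGE5, SPANXN3 and SSX1 were called lower in HCl3, 7 of 9 tested. Of all genes tested, 20.6% of 15939 were called in Ni-W against Ni-E and 17.2% of 15904 in HCl3 against Ni-E. A gene seen in Ni-E alone could pass the filter only by its Ni-E reads and had to be lower elsewhere, so these counts describe the same reads as above. PAGE5 had the smallest adjusted P values (2.18e-10 for Ni-W and 1.96e-10 for HCl3, DESeq2), and the calls of PAGE5, MAGEA6 and MAGEA12 remained without any 1 of the 4 libraries of their comparison. MAGEA12 lay below Ni-E by at least 7.21-fold in Ni-W and 7.31-fold in HCl3, and MAGEA3 by at least 5.58- and 5.66-fold. The calls of SPANXN3, PAGE1 and SSX1 were lost without any 1 library in both comparisons, with adjusted P values from 0.0623 to 0.169 for SPANXN3, from 0.0735 to 0.316 for PAGE1 and, where SSX1 could still be adjusted, from 0.13 to 0.22. For MAGEA3 the adjusted P value was 0.0667 without Ni-W replicate 1 and, in the HCl3 comparison, 0.0613 and 0.0588 without HCl3 replicates 1 and 2. With all 8 libraries in one fit, PAGE5 was no longer called (adjusted P values 0.0794 for Ni-W and 0.0844 for HCl3).

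Between HCl3 and Ni-W, 0 of the antigen genes were called and none had enough reads to be tested by DESeq2, with 0 at an unadjusted p under 0.05 by DESeq2 or by edgeR. In this comparison 4.79% of all 14885 genes tested were called. At this depth a difference between the 2 clonal groups was not detectable for these genes.

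Few genes of any kind shared the pattern of MAGEA3 and MAGEA12. Among the 13786 genes with at least 3 reads in each UT and Ni-E library, 5 had no read in any Ni-W or HCl3 library (0.0363%), and MAGEA3 and MAGEA12 were 2 of the 5. These are 2 of the 4 antigen genes that entered the count, PAGE1 and SPANXN3 being the others. Among the 2117 genes with a mean below 50 reads in UT and Ni-E, it was 4 genes (0.189%). The other 3 genes of the 5, singled out after their values were seen, were TENM1 on chromosome X, LOC100507377 on chromosome 12 and FLJ45974 on chromosome 7. TENM1, a teneurin of neuronal contacts, was at 43 and 21 reads for UT and 83 and 89 for Ni-E. Of the 943 genes of chromosome X outside the families, 481 were tested in Ni-W against UT. Of these, 51 were called higher and 21 lower, where 16.2% of all 15419 genes tested were called. The median log2 fold change of the 481 was -0.031. Regions of the chromosome were not examined apart, and loss of a part of it was not tested.

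SSX2IP (hg19 chr1:85109390-85156240), the protein of adhesion sites and centrosomes that binds SSX2, was expressed throughout. Its level was between 11.23 and 16.76 RPKM in the 8 libraries, above each antigen gene in each library. It was called in none of the 6 comparisons. In HCl3 it nevertheless lay below UT (log2 fold change -0.49 ± 0.11 SE, adjusted P value 6.7e-05, DESeq2). It also lay below Ni-E there (-0.32 ± 0.09 SE, adjusted P value 0.00216, DESeq2), both short of the 1.5-fold threshold.

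MAGE genes of broad expression lie outside the antigen families and share their MAGE domain. Of 11 listed, 5 had no read in the UT and Ni-E libraries and 6 were tested. Of these, MAGEH1 alone was called in Ni-E against UT, where 5.83% of all 14401 genes tested were called. In Ni-W against UT and in HCl3 against UT, 0 were called by DESeq2 and by edgeR (3 and 4 at an unadjusted p under 0.05). For MAGEH1, UT stood at 4.6 and 4.5 RPKM, Ni-E at 9.27 and 9.86, Ni-W at 3.94 and 4.05, and HCl3 at 4.87 and 4.85. It was therefore high in both Ni-E libraries and elsewhere near the UT level, and it rose by 1.02 ± 0.19 SE on the log2 scale in Ni-E (adjusted P value 9.93e-06, DESeq2). This call remained without any 1 library. MAGED1, an adaptor in cell death and differentiation, and MAGED2 lay between 68.7 and 94.38 RPKM and between 56.74 and 85.85 RPKM.

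Cancer-testis genes outside these families were mostly silent or expressed in all groups. Of 78 listed, 76 were in the files, 40 of them had no read in the UT and Ni-E libraries, and of 20 tested 0 were called in Ni-E against UT by DESeq2 and by edgeR (6 at an unadjusted p under 0.05 by DESeq2). In Ni-W against UT, CASC5 (KNL1), a kinetochore protein of dividing cells, was the 1 gene called of 23 tested, where 16.2% of all 15419 genes tested were called. Its UT libraries stood at 8.36 and 8.77 RPKM, Ni-E at 5.18 and 6.85, Ni-W at 14.86 and 15.3, and HCl3 at 11.76 and 11.15. CASC5 was higher in Ni-W than in UT by 0.78 ± 0.11 SE on the log2 scale (adjusted P value 1.15e-11, DESeq2). The list gave 1 call in HCl3 against UT (ELOVL4, lower). CSAG1, a neighbour of the MAGEA genes, had 4 and 0 reads for UT, 5 and 4 for Ni-E and none for Ni-W or HCl3. DPPA2, a gene of pluripotent and early germ cells, had 0 and 1 reads for UT, 6 and 3 for Ni-E, and none for Ni-W or HCl3. Neither was called in any of the 6 comparisons. Against UT both were too low to be adjusted, and against Ni-E the adjusted P values were 0.132 and 0.134 for CSAG1 and 0.133 and 0.135 for DPPA2 in Ni-W and HCl3 (DESeq2).

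Among the genes that write, read or erase DNA methylation, 0 of 13 tested were called in Ni-E against UT by DESeq2 and by edgeR (1 at an unadjusted p under 0.05 by DESeq2). In Ni-W against UT, where 16.2% of all 15419 genes tested were called, 1 of 14 tested was called. This was TET1, which oxidises methylated cytosine, and it was lower (0.64 and 0.68 RPKM in UT, 0.42 and 0.44 in Ni-W, adjusted P value 0.0228, DESeq2). Without any 1 library that call was lost, with adjusted P values between 0.155 (without UT replicate 1) and 0.367 (without Ni-W replicate 1), 0.228 without Ni-W replicate 2 and 0.197 without UT replicate 2. DNMT3L, a cofactor of the de novo methyltransferases in germ cells, was at 6 and 6 reads for UT, 0 and 2 for Ni-E, 32 and 16 for Ni-W, and 6 and 20 for HCl3. It was called higher in Ni-W than in Ni-E (adjusted P value 0.0058, DESeq2), but not without Ni-W replicate 1 (0.218), Ni-W replicate 2 (0.0999) or Ni-E replicate 1 (0.0845), and not between Ni-W and UT (0.161). The maintenance enzyme DNMT1 was called in none of the 6 comparisons. In HCl3 against UT, 0 of 14 tested were called. Against Ni-E, DNMT3A was called higher in HCl3 (log2 fold change 0.74 ± 0.18 SE, adjusted P value 0.000249, DESeq2). It was the 1 gene called of 14, where 17.2% of all 15904 genes tested were called. In HCl3 against UT it was 0.54 ± 0.18 SE (adjusted P value 0.00897, DESeq2), short of the 1.5-fold threshold.

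Of 15 repressors that are known to hold germline genes silent, 0 were called in Ni-E against UT and in HCl3 against UT by DESeq2 and by edgeR (3 and 5 at an unadjusted p under 0.05 by DESeq2). In Ni-W against UT, where 16.2% of all 15419 genes tested were called, 2 of the 15 were called, both lower. That count is no result about the repressors as a set. The 2 genes were PCGF6, a subunit of the PRC1.6 complex, and TRIM28, the corepressor of KRAB zinc finger proteins and a ligase partner of MAGE-A3 and MAGE-A6. For TRIM28, UT stood at 204.8 and 202.01 RPKM, Ni-E at 213.37 and 211.05, Ni-W at 117.5 and 120.51, and HCl3 at 189.59 and 197.4. It was thus low in Ni-W alone, with a log2 fold change of -0.81 ± 0.09 SE against UT (adjusted P value 4.44e-16, DESeq2), and higher in HCl3 than in Ni-W (adjusted P value 3.69e-21, DESeq2). The antigen genes were at or near 0 in both of these groups, and a link between TRIM28 and the antigen genes was not tested. PCGF6 stood at 7.95 and 9.1 RPKM in the UT libraries, 10.17 and 8.85 for Ni-E, 5.47 and 6.09 for Ni-W, and 6.42 and 5.95 for HCl3, so that both washed-out groups lay below UT and Ni-E. Its log2 fold change against UT was -0.60 ± 0.17 SE in Ni-W (adjusted P value 0.00174, DESeq2), a call that was lost without Ni-W replicate 1 (0.212) or UT replicate 2 (0.0821). In HCl3 it was -0.53 ± 0.16 SE against UT (adjusted P value 0.00355, DESeq2), short of the 1.5-fold threshold. Against Ni-E, PCGF6 was called lower in Ni-W (adjusted P value 3.77e-05) and in HCl3 (8.38e-05, DESeq2), the latter call being lost without HCl3 replicate 2 (0.0685) or, by its fold, without Ni-E replicate 1 (0.0233). PCGF6 was not the only repressor called against Ni-E, and the directions were mixed. In Ni-W, MGA was called higher (log2 fold change 0.67 ± 0.11 SE, adjusted P value 7.49e-09, DESeq2). PCGF6, RING1 and TRIM28 were called lower there, where 20.6% of all 15939 genes tested were called. In HCl3, E2F6 and PCGF6 were called lower, where 17.2% of all 15904 were called. These calls are no result about the set either. Of 8 ligase partners of MAGE proteins, 7 were tested in each comparison. TRIM28 alone was called in Ni-W against UT, where 16.2% of all genes tested were called. In Ni-E against UT the median log2 fold change of the tested genes was 0.07 for the broadly expressed MAGE genes, -0.25 for the other cancer-testis genes, -0.13 for the methylation genes and 0.05 for the repressors, against -0.002 over all genes tested. In Ni-W against UT these medians were 0.16, -0.045, 0.002 and -0.032, against 0.005.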

How the data were processed

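RNA-Seq data of 8 BEAS-2B libraries were analysed, 2 biological replicates in each of 4 groups set by the labels, without pooling. Those of Ni-W come from a single washed-out population, so its errors and P values do not cover differences between clones. The authors sequenced TruSeq libraries on an Illumina HiSeq instrument, aligned them to hg19 with STAR 2.4 and removed reads with several alignments, so that near-identical copies read low. Read counts per RefSeq gene were deposited by the authors from the BioWardrobe system, with no further normalization. The deposited RPKM values, counts per gene length and mapped reads by the authors, are rounded to 2 decimals. A value covers all exons of a gene. Whether strand was used was not stated.

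Each pair of groups was fitted on its 4 libraries with DESeq2 1.42.0 in R 4.3.3 (two-sided Wald test, default independent filtering, Benjamini-Hochberg adjustment over all genes tested). A gene was called at an adjusted P value under 0.05 and a change of at least 1.5-fold, the thresholds of the study's methods. DESeq2 and not edgeR was the main test for this reason, and the edgeR 4.0.16 quasi-likelihood test was an alternative, beside TMM size factors, all 8 libraries in one fit, a mean count of at least 10, no independent filtering, other fold thresholds, a replicate block and leaving out each library. Added after the data were seen were independent filtering set for 0.05, crossed pairings and leaving out libraries for the summed level. A fold against a group at 0 was computed against 3 reads per library and given as a lower bound. Intervals are exact Poisson intervals at 95%, and intervals and floors cover counting error only, since reads carried no molecular identifiers. Scripts were tested on simulated data. Genes with full values were those called in any comparison or with at least 10 reads in a library. The members, the other lists and this rule were chosen with earlier results of these data known.

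Unique shares used windows of 50 bases, an assumed read length, from the longest GENCODE v44 transcript against the transcripts of all other genes, with gene symbols matched through RefSeq for 96 of the 105 genes. Promoter windows are those of RefSeq on GRCh38.p14, and gene positions in the text are those of the files (hg19). No position was moved between builds. No protein sequence was used here. Figures were drawn with matplotlib.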

Additional observations from a re-analysis of the deposited data

How the results depend on the processing

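The directions of the called antigen genes held under the alternatives, whereas many calls at these counts did not. The ratio of the summed level in Ni-E over UT was 6.78 by RPKM and 2.01 without PAGE5, and that of HCl3 over UT 0.106 by RPKM and 0.146 without PAGE5. It ranged from 4.61 to 4.97 for Ni-E, from 0.0181 to 0.0987 for Ni-W (the lowest without Ni-W replicate 1, the highest without Ni-W replicate 2) and from 0.13 to 0.14 for HCl3 when 1 library was left out. With at least 10 reads required in both libraries, 0 genes were detected in UT and 0 in HCl3. With at least 1 read in both, 1 was detected in Ni-W and 3 in HCl3, with 3 reads in either library 1 in Ni-W, and with the level of 3 reads in the smallest library 0 in HCl3.

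For the calls, all 8 libraries in one fit left 1 gene in Ni-E against UT (MAGEA6). The replicate block left 1 gene in Ni-E against UT (PAGE5), 1 in Ni-W against UT (MAGEA12), 0 in HCl3 against UT and 4 in HCl3 against Ni-E. Same-numbered libraries are not known to be paired, the correlation of their deviations lay between -0.159 and 0.222, and the crossed pairing gave 1 call in HCl3 against UT. A mean count of at least 10 left 0 genes in Ni-W against UT, 0 in HCl3 against UT, 3 in Ni-W against Ni-E and 3 in HCl3 against Ni-E, as fewer genes entered the fit. Leaving out 1 library gave 0 to 1 calls in Ni-E against UT, 0 throughout in Ni-W against UT and in HCl3 against UT, and 3 to 4 in Ni-W against Ni-E and in HCl3 against Ni-E. A lone library was then assumed to vary like the other group. Over single genes, the alternatives gave 558 results on the same side of the thresholds, 100 calls lost and 3 calls gained (SSX1 in Ni-E and PAGE5 in Ni-W by edgeR, and SSX2IP in HCl3 against UT without UT replicate 1, at -0.60 with an adjusted P value of 1.47e-07). Depth limits these results, since 3 reads is the floor and only 6 genes passed 10 reads.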
